A study of Arabidopsis thaliana with 6 samples.

Results

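The genes described here are 10 sulfur deficiency response genes of *Arabidopsis thaliana*, taken by locus from a named list. All 10 had a probe set among the 27827 probe sets of the arrays. They are 2 sulfate transporter genes, *SULTR1;1* (AT4G08620) and *SULTR1;2* (AT1G78000), 3 adenosine 5′-phosphosulfate reductase genes, *APR1* (AT4G04610), *APR2* (AT1G62180) and *APR3* (AT4G21990), and 5 further genes known to respond to low sulfur, *LSU1* (AT3G49580), *LSU2* (AT5G24660), *SDI1* (AT5G48850), *BGLU28* (AT2G44460) and *GGCT2;1* (AT5G26220).

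Plants take up sulfate through their roots, activate it to adenosine 5′-phosphosulfate and reduce it in plastids to sulfite and sulfide, from which cysteine and then glutathione are made. When sulfur runs short, the transcripts for high-affinity uptake, for reduction and for the release of sulfur from glucosinolates and glutathione accumulate, largely through the EIN3-like regulator SLIM1. Glutathione and cysteine are known to lower the transcripts of APR and of the uptake transporters.

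The study asked how loss of the N-terminal acetyltransferase NatB alters gene expression under reductive stress. Whole-seedling RNA of 2 genotypes was compared, wildtype (Col-0) and *naa20*, a T-DNA insertion line (SALK_027687) in the gene of the catalytic NatB subunit NAA20, with 3 arrays per genotype. Seedlings of both genotypes were 17 days old, were grown in 8.5 h light and had 2 mM dithiothreitol (DTT), a thiol reductant, in their medium. The labels give 15 days on DTT after a transfer at day 2 and pools of at least 10 seedlings per sample, whereas the methods describe growth on DTT from germination, with *naa20* kept on control medium at first, and the supplement speaks of individual plants. The supplement adds that the samples put on arrays had been selected by the integrity and purity of their mRNA. One insertion line stood for the mutant. Arrays without DTT and sulfur-deprived plants are not analysed here, so no value below measures the effect of DTT or of sulfur supply on these genes, and the name of the gene set was not tested.

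Signals are log2 values after robust multi-array averaging (RMA), on which 1 unit is a 2-fold difference. Differences are *naa20* minus wildtype, with p-values from limma adjusted over all probe sets by Benjamini-Hochberg, and the threshold was an adjusted p below 0.05 together with a difference of 2-fold or more. *NAA20* (AT1G03150) itself was at 7.44, 6.98 and 7.54 on the *naa20* arrays and at 8.69, 8.56 and 8.83 on the wildtype arrays, a difference of -1.38 (adjusted p = 0.000689, limma), although the place of its probes relative to the insertion was not examined. Markers of root tissue were lower in *naa20*: 17 of 18 markers of root hair, endodermis, stele and root cap had a negative difference, 12 of them passed the threshold, and their mean signal was 4.89 to 5.18 on the *naa20* arrays and 6.42 to 6.65 on the wildtype arrays. In seedling RNA, fewer cells of a type and less RNA per cell cannot be told apart.

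Of the 10 sulfur deficiency genes, 0 passed the threshold, against 9.92% of all probe sets (4.95% higher and 4.97% lower in *naa20*). At an unadjusted limma p under 0.05 there were 3 genes, *APR3*, *LSU2* and the transporter gene AT4G08620, beside 42.9% of all probe sets. Only AT4G08620 had an adjusted p under 0.05 at any fold, as did 33.9% of all probe sets (16.6% higher, 17.4% lower). The arrays of the genotypes were fully separate for 2 of the 10 genes, AT4G08620 and *LSU2*, against 47.5% of all probe sets. The sign was positive for 8 genes and negative for both transporters, and the median difference was 0.42, beside -0.004 over all probe sets. The standard errors were wide, with a median of 0.30 for the 10 genes and of 0.12 over all probe sets. Signals were low for AT4G08620, at percentile 35.4 of all probe sets, and for *LSU1*, *SDI1*, *LSU2* and *BGLU28*, at 28.0 to 37.1. AT5G26220 was at percentile 47.1, and the APR genes and AT1G78000 were at 84.6 to 91.7.

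**Figure D1:**
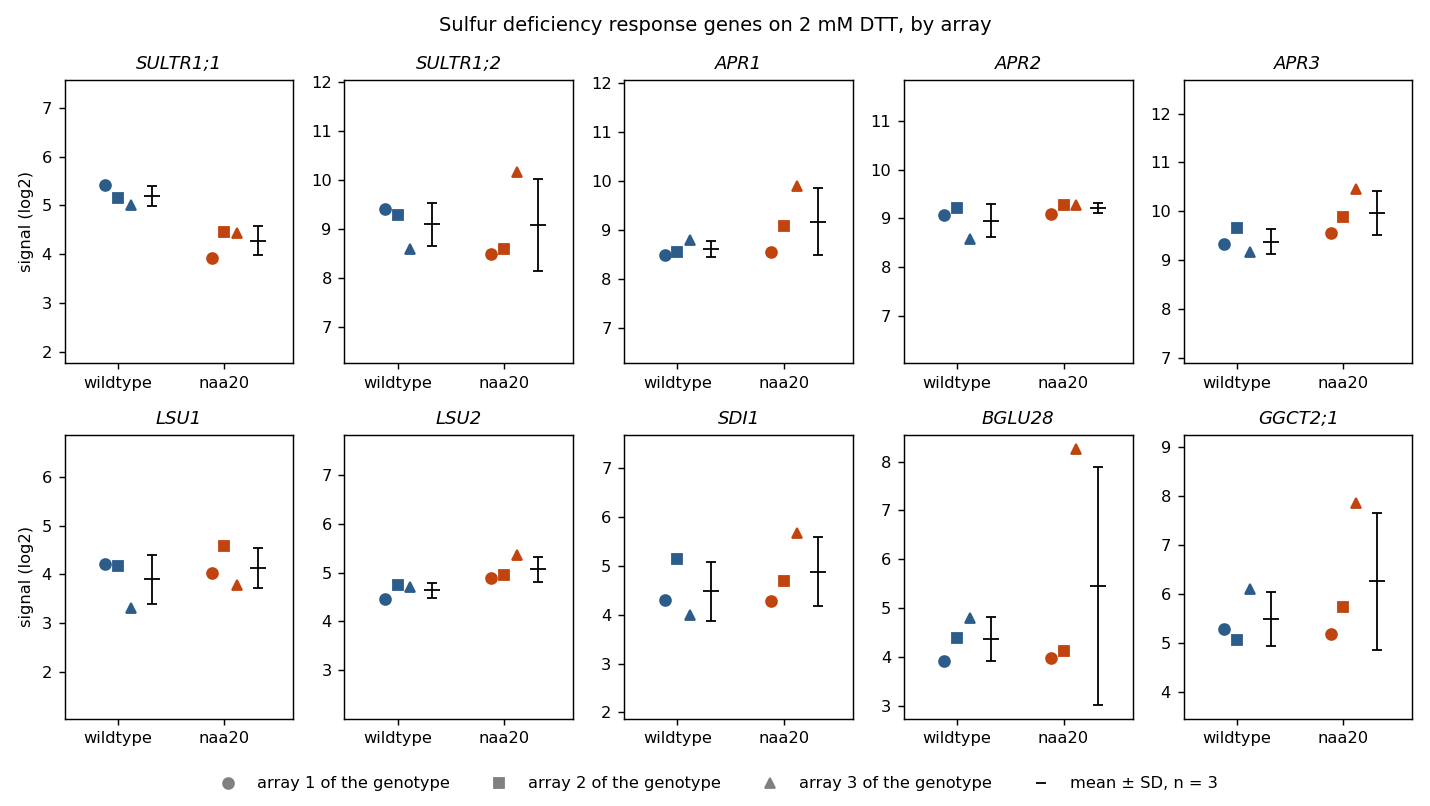
Log2 signal (y axis) of the 10 sulfur deficiency response genes on each wildtype (blue) and *naa20* (orange) array. Symbols give the array of the genotype, and the bars beside them the mean ± SD of 3 arrays, with the same y span in every panel. The third *naa20* array (triangle) lies far above the other two for *BGLU28*, at 8.26, and of the 10 genes only *LSU2* and the transporter gene AT4G08620 have separate genotypes.

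Both transporters of the set carry out high-affinity sulfate uptake at the root surface, and AT4G08620 is known as the more strongly induced by sulfur starvation. This gene, *SULTR1;1*, was at 3.93, 4.46 and 4.43 on the *naa20* arrays and at 5.42, 5.14 and 5.01 on the wildtype arrays. Every *naa20* array was below every wildtype array. The difference was -0.91 (SE 0.18, 95% interval -1.33 to -0.50), a 1.88-fold lower signal in *naa20* (adjusted p = 0.00632, limma), which missed the fold limit. An exact two-sided permutation test of the 6 values gave p = 0.1, the smallest that 3 against 3 arrays allow. The adjusted p stayed between 0.0095 and 0.0245 with any single array left out, and the gene passed the threshold without the second *naa20* array (-1.01) or without the third wildtype array, just over 2-fold in both cases. The root hair markers moved the same way: all 5 passed the threshold as lower, from *PRP3*, a wall protein of root hairs, at -3.84 to the NADPH oxidase gene *RHD2* at -1.01, and their mean was 4.87 to 5.50 on the *naa20* arrays and 7.20 to 7.41 on the wildtype arrays. *RHD2* had an adjusted p above 0.05 with any single array left out other than the third *naa20* array. The part of root tissue in this difference was not tested.

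*SULTR1;2*, the transporter that carries most sulfate uptake in sulfur-replete roots, was at 8.48, 8.59 and 10.17 on the *naa20* arrays and at 9.41, 9.28 and 8.59 on the wildtype arrays. The third *naa20* array was the highest of the 6 and the other two the lowest. The means were nearly equal, at 9.08 ± 0.95 in *naa20* and 9.09 ± 0.44 in wildtype (SD, n = 3), but the 95% interval of the difference (-1.09 to 1.06) still held a 2-fold difference either way. Without the third *naa20* array the difference was -0.56, and without the first it was 0.28.

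The 3 APR genes encode plastid reductases that make sulfite from adenosine 5′-phosphosulfate, a step that largely sets the flux of sulfate assimilation. *APR1* was at 8.54, 9.07 and 9.89 on the *naa20* arrays and at 8.49, 8.55 and 8.79 on the wildtype arrays, a difference of 0.56 (95% interval -0.17 to 1.29, adjusted p = 0.22, limma). Its first *naa20* array lay among the wildtype arrays and the other two above them. *APR3* was at 9.56, 9.89 and 10.46 against 9.33, 9.65 and 9.16, a difference of 0.59 (0.03 to 1.15, adjusted p = 0.10, limma), again with only the first *naa20* array inside the wildtype range. Without that array the differences were 0.87 for *APR1* and 0.79 for *APR3*, and the adjusted p fell to 0.0493 and 0.0439 (limma). Without the third *naa20* array they were 0.20 and 0.35, with an adjusted p of 0.476 and 0.207 (limma). *APR2*, whose product is known to provide most of the reductase activity of leaves, was at 9.09, 9.26 and 9.27 in *naa20* and at 9.08, 9.22 and 8.57 in wildtype. All of its values but that on the third wildtype array, which was lower, lay close together, and the difference was 0.25 (-0.15 to 0.66), or 0.06 without that array. Whether probes of these similar genes share signal was not examined.

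The LSU genes encode small coiled-coil proteins that bind many partners and accumulate under low sulfur. *LSU2* was at 4.88, 4.96 and 5.36 on the *naa20* arrays and at 4.46, 4.74 and 4.71 on the wildtype arrays. All *naa20* arrays were above all wildtype arrays, by a mean of 0.43 (SE 0.15, 95% interval 0.08 to 0.78), with an adjusted p of 0.0639 (limma). With the replicate number as a block, the adjusted p of *LSU2* was 0.0348, so that 2 of the 10 genes were then under 0.05. *LSU1* was at 4.04, 4.58 and 3.79 in *naa20* and at 4.21, 4.16 and 3.32 in wildtype. Both genotypes were lowest on array 3, and the difference of 0.24 (-0.44 to 0.92) came down to -0.05 without the third wildtype array. *LSU1* and *LSU2* each lie next to another family member in the genome, *LSU3* and *LSU4*, which differed by 0.20 and -0.24 with adjusted p above 0.05.

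**Figure D2:**
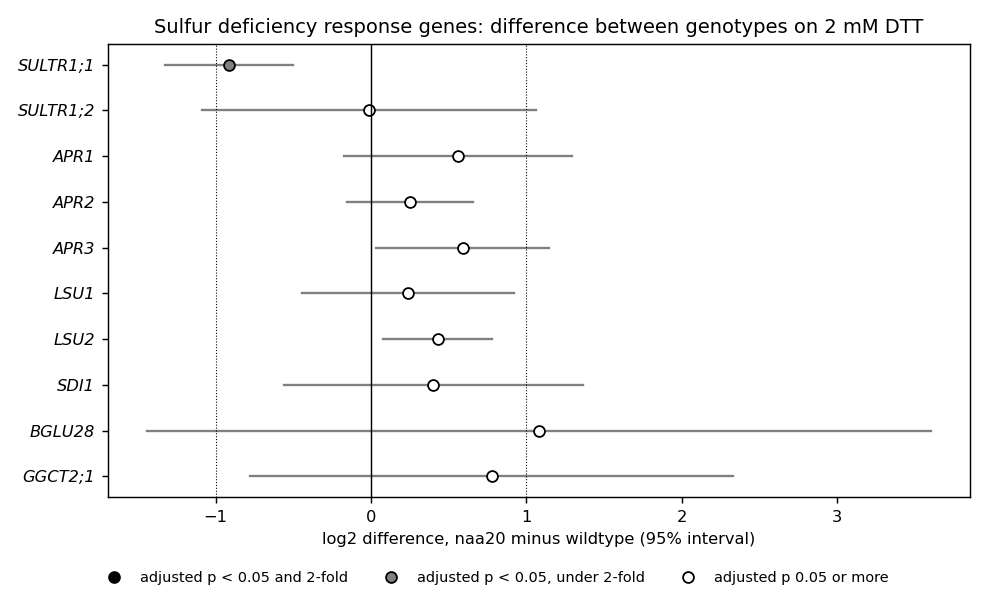
Log2 difference, *naa20* minus wildtype (x axis), of each of the 10 genes with its 95% interval from limma. Dotted lines mark a 2-fold difference. Only the topmost gene, AT4G08620, at -0.91, has an adjusted p under 0.05 (grey), and the interval of *BGLU28* runs from -1.44 to 3.60.

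The remaining genes act on stored sulfur. SDI1 is a repressor of aliphatic glucosinolate synthesis, BGLU28 is a beta-glucosidase tied to glucosinolate breakdown under low sulfur, and AT5G26220 encodes a gamma-glutamyl cyclotransferase that degrades glutathione in the cytosol. *BGLU28* was at 3.97, 4.12 and 8.26 on the *naa20* arrays and at 3.92, 4.38 and 4.80 on the wildtype arrays. The third *naa20* array was 4.14 above the nearest *naa20* array, while the other two were inside the wildtype range. The SD among *naa20* arrays, 2.43, ranked 1 of 27827 probe sets, and the difference of 1.08 had an interval of -1.44 to 3.60 (adjusted p = 0.496, limma). Without the third *naa20* array the difference was -0.32.

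*GGCT2;1* showed the same array: it was at 5.17, 5.74 and 7.85 in *naa20* and at 5.29, 5.05 and 6.10 in wildtype. The third *naa20* array was 2.12 above the nearest, and the highest wildtype value was also on the third array. The difference of 0.78 (-0.78 to 2.33, adjusted p = 0.424, limma) became -0.02 without the third *naa20* array. *SDI1* was at 4.29, 4.69 and 5.67 in *naa20* and at 4.30, 5.15 and 3.99 in wildtype. The genotypes overlapped, and its difference of 0.40 (-0.56 to 1.37) became 0.01 without the third *naa20* array.

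The third *naa20* array stood apart for several of the sulfur genes. It was the highest of the *naa20* arrays for 8 of the 10 genes, all but AT4G08620 and *LSU1*, and for 34.1% of all probe sets. For *APR2* the margin was only 0.004. Other sulfur deficiency genes, taken up below, were mixed. The same array was the highest for *SHM7*, *SERAT3;2*, *BGLU30* and *GGCT2;2*. It was the lowest for *LSU3*, *LSU4*, AT1G04770, *SERAT3;1* and AT1G44790, and lay between the others for *SLIM1*. The first *naa20* array was the lowest for 9 of the 10 genes and for 29.9% of all probe sets. On the third *naa20* array, 3 of the 10 genes, *BGLU28*, AT5G26220 and AT1G78000, were at least 1 log2 unit above both other *naa20* arrays, as were 0.571% of all probe sets (159). *SDI1* was 0.98 above the nearest. The distance of *BGLU28* ranked 1 and that of the cyclotransferase gene AT5G26220 ranked 5 of all 27827 probe sets. The third wildtype array was at least 1 log2 unit above both other wildtype arrays for 0.837% of all probe sets, but for 0 of the 10 genes. What sets the third *naa20* array apart was not tested. The labels do not say what a replicate number shares across genotypes. The third wildtype array was above its genotype mean together with the third *naa20* array for 4 of the 10 genes (*APR1*, *LSU2*, *BGLU28* and AT5G26220) and below it for 5 others that the *naa20* array had above.

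**Figure D3:**
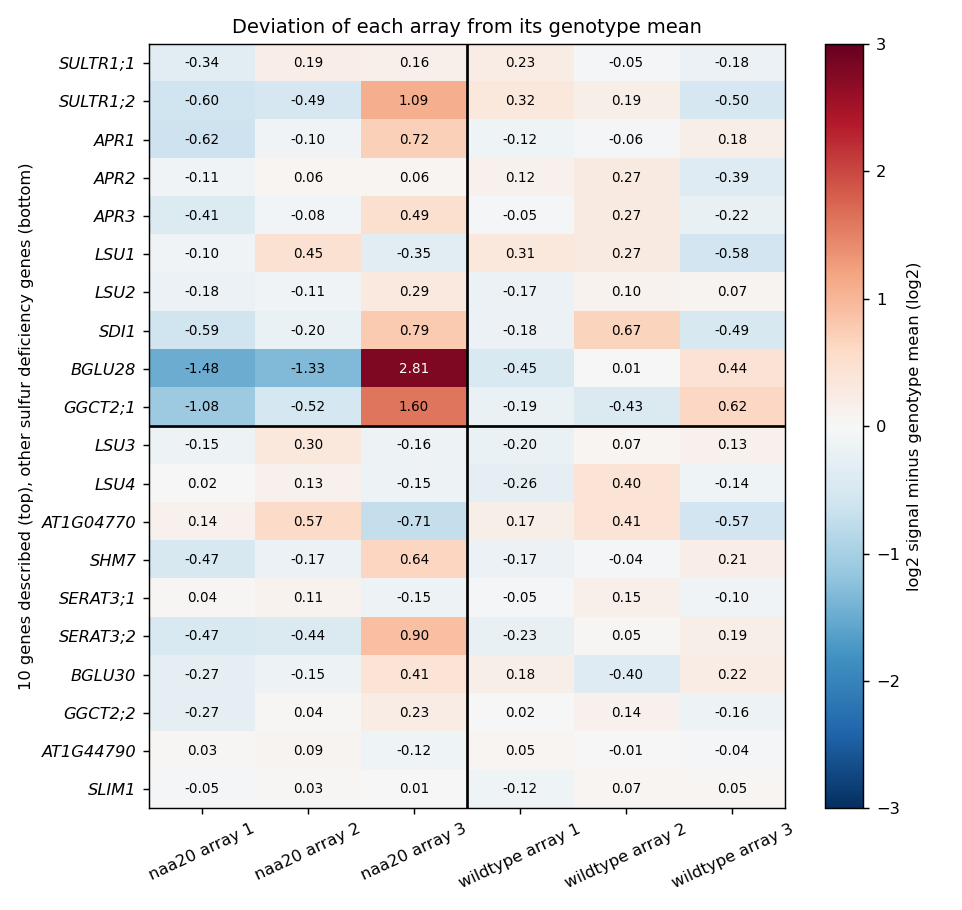
Deviation of each array's log2 signal from the mean of its genotype (colour and printed value), for the 10 genes (above the line) and 10 other sulfur deficiency genes (below). The third *naa20* array stands at 2.81 for *BGLU28*, 1.60 for the cyclotransferase and 1.09 for the transporter AT1G78000, while *LSU1* is below the mean on array 3 of both genotypes.

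Leaving out the third *naa20* array lowered the median difference of the 10 genes from 0.42 to 0.10, the lowest of the 6 values obtained by leaving out single arrays, and leaving out the first *naa20* array gave the highest, 0.61. The sign of 4 genes, AT1G78000, *LSU1*, *BGLU28* and AT5G26220, changed with at least 1 array left out. The sign of the other 6 held in all of these fits, although that of *SDI1* came as low as 0.01.

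**Figure D4:**
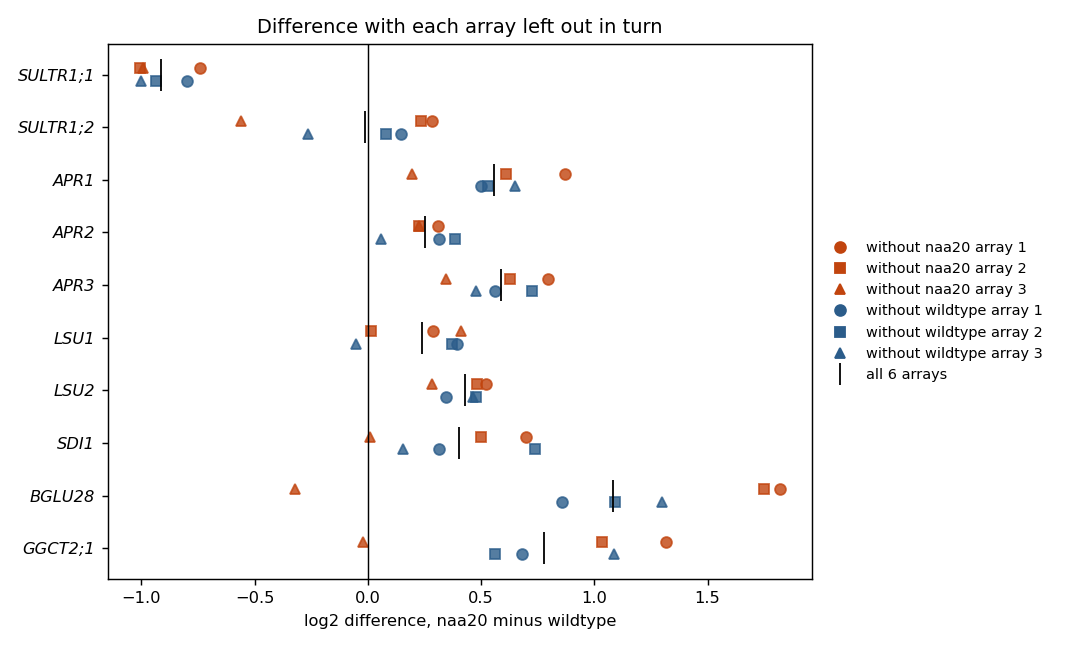
Log2 difference, *naa20* minus wildtype (x axis), of each of the 10 genes with all 6 arrays (bar) and after dropping 1 array at a time (symbols). AT4G08620 stays between -1.01 and -0.74 and *LSU2* between 0.28 and 0.52, whereas *BGLU28* spans -0.32 to 1.82.

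In a list of 10 other sulfur deficiency genes, 2 passed the threshold, in opposite directions, and the median difference was 0.17. The list also holds a regulator and family members of the genes above, and whether each responds to low sulfur was not examined. *BGLU30*, a beta-glucosidase gene known also from dark and senescing leaves, was at 9.55, 9.67 and 10.23 in *naa20* and at 7.75, 7.18 and 7.80 in wildtype, and rose by 2.24 (adjusted p = 0.000395, limma). *GGCT2;2* (AT4G31290), a gamma-glutamyl cyclotransferase gene of the same family as AT5G26220, fell by 1.44 (adjusted p = 0.000409, limma). The regulator gene *SLIM1* was 0.54 higher (adjusted p = 0.00345, limma), under the fold limit. The other 7 had an adjusted p above 0.05. Among them, AT1G04770 and *SHM7*, a serine hydroxymethyltransferase gene, differed by 0.05 and 0.22, and *SERAT3;2*, a serine acetyltransferase gene, was 1.34 higher on the third *naa20* array than on the nearest. For AT1G04770 the third *naa20* array was the lowest, at 4.80 against 5.64 and 6.08 on the other two. These 3 were picked after their values were seen.

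Of the 10 other sulfate transporters, 3 passed the threshold and 6 had an adjusted p under 0.05 (4 higher, 2 lower), with a median difference of 0.26. *SULTR3;2* was at 8.26, 7.86 and 8.24 in *naa20* and at 6.34, 6.40 and 5.83 in wildtype, and rose by 1.93 (adjusted p = 0.000294, limma). *SULTR3;5* (AT5G19600), which acts in the root vasculature in sulfate movement to the shoot, was at 5.11, 5.24 and 4.57 against 7.47, 7.31 and 6.54, and fell by 2.13 (adjusted p = 0.00105, limma). *SULTR3;1*, a chloroplast sulfate transporter gene, fell by 1.09 (adjusted p = 0.00649, limma), a call lost without the first *naa20* array (-0.88) and without the third wildtype array, where the difference came just under 2-fold. The transporter genes past the threshold thus lay in group 3 and ran both ways, whereas the uptake gene AT4G08620 was lower but under the fold limit and AT1G78000 overlapped between the genotypes.

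Most genes of the other enzymes of sulfate assimilation, glutathione synthesis and the branch to sulfation, 14 of 17, had a positive difference, as did 49.5% of all probe sets. Of these 17 genes for ATP sulfurylase, sulfite reductase, cysteine and glutathione synthesis and sulfate activation in sulfation, 3 passed the threshold, all higher, and 11 had an adjusted p under 0.05 (9 higher, 2 lower), with a median of 0.43. *GSH1*, whose product is the first and rate-limiting enzyme of glutathione synthesis, was at 11.23, 11.16 and 11.09 in *naa20* and at 9.58, 9.56 and 9.55 in wildtype, and rose by 1.60 (adjusted p = 3.42e-05, limma). *GSH2*, the gene of glutathione synthetase, was at 9.87, 9.80 and 9.94 against 7.84, 8.05 and 8.05, and rose by 1.89 (adjusted p = 3.42e-05, limma). Arrays of the same genotype lay close together for both genes, with SDs of 0.07 in *naa20*, against 2.43 for *BGLU28*. *SERAT2;2*, a mitochondrial serine acetyltransferase gene, rose by 1.08 (adjusted p = 0.00108, limma), a call lost without the third wildtype array (0.96). The lowest was the adenosine 5′-phosphosulfate kinase gene *APK3* at -0.49 (adjusted p = 0.00416, limma). The lists were read against the 9.92% and 33.9% of all probe sets, and no test of the lists themselves was made.

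**Figure D5:**
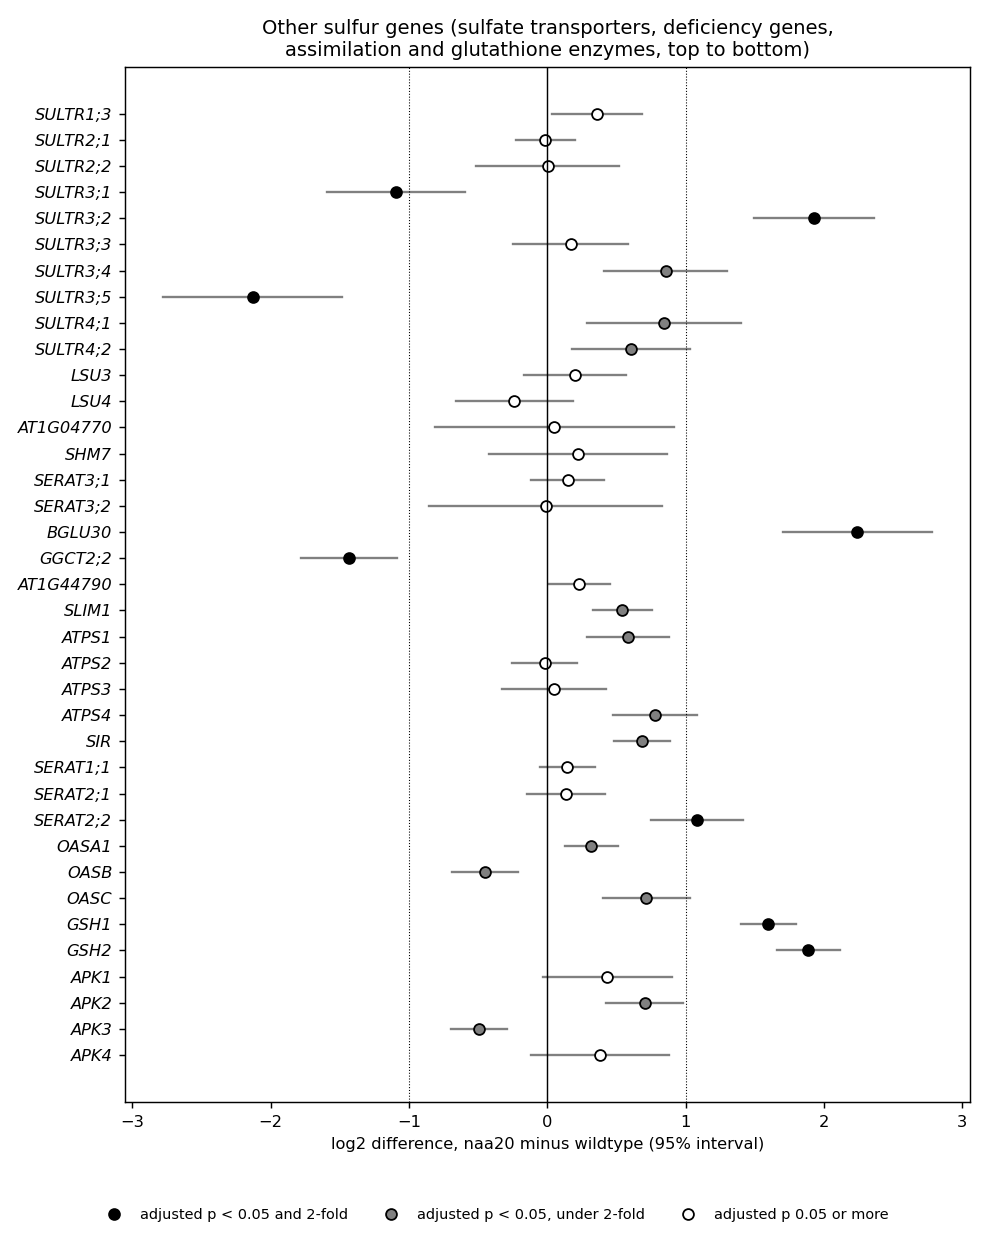
Log2 difference, *naa20* minus wildtype (x axis), with its 95% interval for 37 other sulfur genes, from the top the sulfate transporters, deficiency genes, and assimilation and glutathione enzymes. Black points passed the threshold, grey points had an adjusted p under 0.05 below 2-fold. *GSH1* and *GSH2*, at 1.60 and 1.89, have narrow intervals, and the transporter AT5G19600 lies at -2.13.

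Leaf tissue was present in both genotypes. The 8 mesophyll markers had a mean of 10.9 to 11.2 on the *naa20* arrays and 11.7 to 11.8 on the wildtype arrays. Of these, 7 were lower, and only *CAB3*, a light-harvesting protein gene, passed the threshold (-2.17, limma). The other marker, *RBCS1A*, was at 14.18 on every array, at percentile 99.99 of the signals. After quantile normalization an equal value is an equal rank, so this value near the top does not measure whether leaf RNA differed. Of the root lists, 6 of 8 endodermis markers passed as lower, from the peroxidase gene *PER64* at -2.44 to *MYB36* at -0.43. Stele markers ran from *PHO1* at -2.29 to *SHR* at 0.01, and the cap markers *SMB* and *BRN1* were at -0.92 and -0.34. Their part in the sulfur gene values was not tested.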

How the data were processed

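Seedling RNA of 3 *naa20* and 3 wildtype samples had been hybridised to Affymetrix Arabidopsis Gene 1.0 ST arrays. The deposited values are log2 signals, which the authors obtained by robust multi-array averaging (RMA, with background correction and quantile normalization) from a custom CDF (version 16) that follows TAIR genes. The methods name JMP Genomics for the authors' statistics. All 6 arrays hold the same sorted values (minimum 1.75, median 6.12, maximum 14.6), as quantile normalization leaves them, so signals are relative within an array. Without scanner files, background and detection per probe were not examined. Precision is limited by the small number of arrays.

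Signals were used without a filter. The genotypes were compared with limma 3.58.1 (lmFit and eBayes) in R 4.3.3, and p-values were adjusted over the 27827 probe sets by Benjamini-Hochberg. A run on simulated data with independent noise and large changes checked the code only. It did not cover smaller differences or deviations shared between arrays. The exact permutation tests were two-sided. The limma p-values set each difference between genotypes against the spread among samples of the same genotype, moderated over all probe sets. What that spread covers is unclear, as the sources differ on pools or individual plants. Plots were made in Python 3.11.15 with matplotlib 3.10.9.

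A table of gene names, from the TAIR10.1 assembly, held 27241 of the probe sets and all 74 loci on the gene lists, and was used for names and for neighbouring genes only. The text names all 10 sulfur deficiency response genes, the genes past the threshold and those with the highest and lowest difference in each list of other sulfur genes, and the highest and lowest of the marker lists. The 10 genes were taken by locus, with no signal in the rule, but they and the other lists were chosen with earlier results of these data known.

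Samples with the same replicate number deviated together from their genotype means over all probe sets, with correlations of 0.18, 0.19 and 0.39 for numbers 1, 2 and 3. Each was over 0.1, the limit set for pairing, but *naa20* 1 with wildtype 2 (0.17) and *naa20* 2 with wildtype 1 (0.145) were about as high as the first pairs, and no source says what a number shares. The main fit had no block. The alternatives were the replicate number as a block, other moderation of the variance (trend and robust, or none), each array centred on its median, the lowest 25% of signals left out, array weights, no fold limit, and fits without 1 array at a time.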

Additional observations from a re-analysis of the deposited data

How the results depend on the processing

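With the threshold as used, 0 of the 10 sulfur deficiency genes passed, and the count was 1 with no fold threshold, 1 with array weights, where *SULTR1;1* was at -1.03, and between 0 and 1 with single arrays left out. Genes of the 10 with an adjusted p under 0.05 at any fold numbered 1, 2 with the replicate block, and 1 to 3 with single arrays left out, the 3 arising without the first *naa20* array. The replicate block changed no call at the threshold among the genes named. Without a fold threshold the calls rose from 3 to 6 among the other transporters and from 3 to 11 among the assimilation enzymes. With ordinary variance per gene, the transporters with an adjusted p under 0.05 fell from 6 to 2, and the adjusted p of *SULTR3;1* was 0.0513. The sign changed with single arrays left out for *SULTR1;2* (-0.56 to 0.28), *LSU1* (-0.053 to 0.41), *BGLU28* (-0.32 to 1.82), *GGCT2;1* (-0.023 to 1.32) and *SHR* (-0.12 to 0.15), and that of *SHR* also with array weights (-0.040). The causes were not tested. Centring could change no value, because all 6 arrays hold the same sorted values and so the same median. The filter on low signals changed no call of the genes named among those it kept. It left out *LSU3*, *LSU4*, *MYB36* and *SMB*. Over the single genes and the counts of the other lists at any fold, 177 of the 198 fits with an array left out and 190 of the 196 other fits were labelled unchanged. For a gene this meant the same direction and side of the threshold, and for a count a change below a set ratio. The tally includes *NAA20* and the root and leaf markers, and leaves out the counts and the median of the 10 genes. The centring fits, and *RBCS1A* in every fit, could only be unchanged. The block, moderation and low-signal settings kept each log2 difference as it was, so a direction could not change there. With 3 arrays per genotype, the 95% intervals of *SULTR1;2* and *BGLU28* held a 2-fold difference in either direction.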
